A study of Mus musculus with 15 samples.

Results

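The genes described are 40 genes of the p53 pathway and of apoptosis, measured by bulk RNA-seq in haematopoietic stem cells (HSCs) of mice with different doses and forms of the transcriptional repressor GFI1. They were taken by symbol from the table of 35533 gene symbols, and all 40 were found. They comprise Trp53 and its inhibitors Mdm2 and Mdm4 (3 genes), p53 target genes of arrest and stress response (11), BH3-only genes (7), pore-forming effectors (2), anti-apoptotic BCL2 family members (3), death receptors and their regulators (4), mitochondrial factors and the apoptosome (3), caspases (4) and inhibitor of apoptosis proteins (3). After the filter on low counts 37 of them were among the 13358 genes tested. Phlda3, Bik and Bmf did not pass it.

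The p53 protein is a transcription factor that is held low by the ubiquitin ligase MDM2 and its partner MDM4 and is stabilised by DNA damage and other stress. It then activates genes of cell cycle arrest, repair and cell death, among them Mdm2 itself, so that the loop closes on p53. In the mitochondrial pathway of apoptosis, BH3-only proteins engage the BCL2 family, and BAX and BAK1 open pores in the outer mitochondrial membrane when BCL2, BCL-XL and MCL1 no longer hold them. Cytochrome c then leaves the mitochondria and joins APAF1 in the apoptosome, which activates caspase 9, while death receptors such as FAS activate caspase 8 directly and the inhibitor of apoptosis proteins restrain caspases. In HSCs, p53 is known to limit self-renewal and to enforce quiescence, and MCL1 is needed for their survival.

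There were 15 libraries, 3 for each of 5 genotypes, all homozygous and untreated. Gfi1-WT mice carry murine Gfi1. GFI1-KI mice (36S in the titles) carry human GFI1 in the murine locus. In GFI1-KD mice the knock-in allele also holds an antisense Neo cassette, and less of the human gene is expressed. Gfi1-KO mice lack Gfi1, and GFI1-36N mice carry the 36N variant of human GFI1 in the murine locus. GFI1-KI thus served as the control of GFI1-KD and GFI1-36N, and Gfi1-WT as that of Gfi1-KO. Each knock-in allele acts in every cell that uses the locus. Bone marrow was depleted of lineage-positive cells and HSCs were sorted on Sca1, c-Kit and CD150, with CD48 and lineage markers absent. The age of the mice, and whether each library came from 1 mouse, are not given in the sources used here, so that p-values measure the spread between these libraries, which may in part be technical. Columns were matched to titles by their number alone, so that a genotype below is the label of a library.

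The libraries held between 16221642 and 20641056 estimated counts, with 9415 to 15125 genes above 0, and levels are counts scaled to library size (CPM) after TMM scaling. A count of 0 allows a level of up to 0.143 to 0.187 CPM, depending on the library (3 counts, counting error only). Gfi1 itself was estimated at 105, 54.5 and 0 counts in the Gfi1-KO libraries and at 4.85, 0 and 0 in those of Gfi1-WT. It ranged from 0 to 422 over all libraries, so that it did not follow the labels. The part of the gene removed in Gfi1-KO is not given in the sources used here, and human GFI1 was not part of the murine cDNA reference. Median Spearman correlations to the other libraries were lowest in GFI1-36N replicate 3 (0.557) and GFI1-KD replicate 1 (0.682). These are called below the libraries that stood apart. GFI1-KI replicate 1 (0.710), Gfi1-KO replicate 2 (0.714) and Gfi1-WT replicate 3 (0.720) followed closely. Over the members alone the lowest was GFI1-36N replicate 3 (0.637). GFI1-KI replicate 1 (0.674) and Gfi1-KO replicate 2 (0.686) then lay below GFI1-KD replicate 1 (0.715). The library labelled Gfi1-KO replicate 2 went against the sort gate, with 502 CPM of Cd48 (0 to 46.1 in the others) and 1.29 CPM of Slamf1, the gene of CD150 (9.58 to 412 in the others). It also held 2382 CPM of Mpo and a summed level of 3375 CPM for 9 granulocyte genes (5 of 9 above 0), against 56.0 to 1348 in the others. The 1348 CPM were in GFI1-KI replicate 2, a control library, with Mpo at 839 CPM. In it 9 of 9 granulocyte, 6 of 6 monocyte and 8 of 8 erythroid genes were above 0, and Ngp, Camp and Ltf were so in no other library. Kit, the gene of c-Kit, was at 159 to 824 CPM in all 15 libraries. Ly6a, the gene of Sca1, was at 0 in Gfi1-WT replicate 3 and at 12.7 to 97.1 CPM in the others. The members most affected by GFI1-36N replicate 3, GFI1-KD replicate 1 and Gfi1-KO replicate 2 are given with and without them.

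The members were detected unevenly (heat map of the 40 genes). Between 30 and 38 of the 40 were above 0 in 14 libraries and 23 in GFI1-36N replicate 3. They took 0.247% to 0.297% of all counts in the 14 and 0.193% in GFI1-36N replicate 3. On the log2 CPM scale the members had a median standard deviation within genotypes of 2.18, against 2.12 over all genes tested, and the common biological coefficient of variation of the libraries was 1.39. The spread was smallest for Cycs (SD 0.38), Mcl1 (0.45), Casp6 (0.45), Tnfrsf10b (0.49) and Trp53 (0.52), and largest for Trp53inp1 (3.89), Casp9 (3.86) and Fas (3.66).

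**Figure D1:**
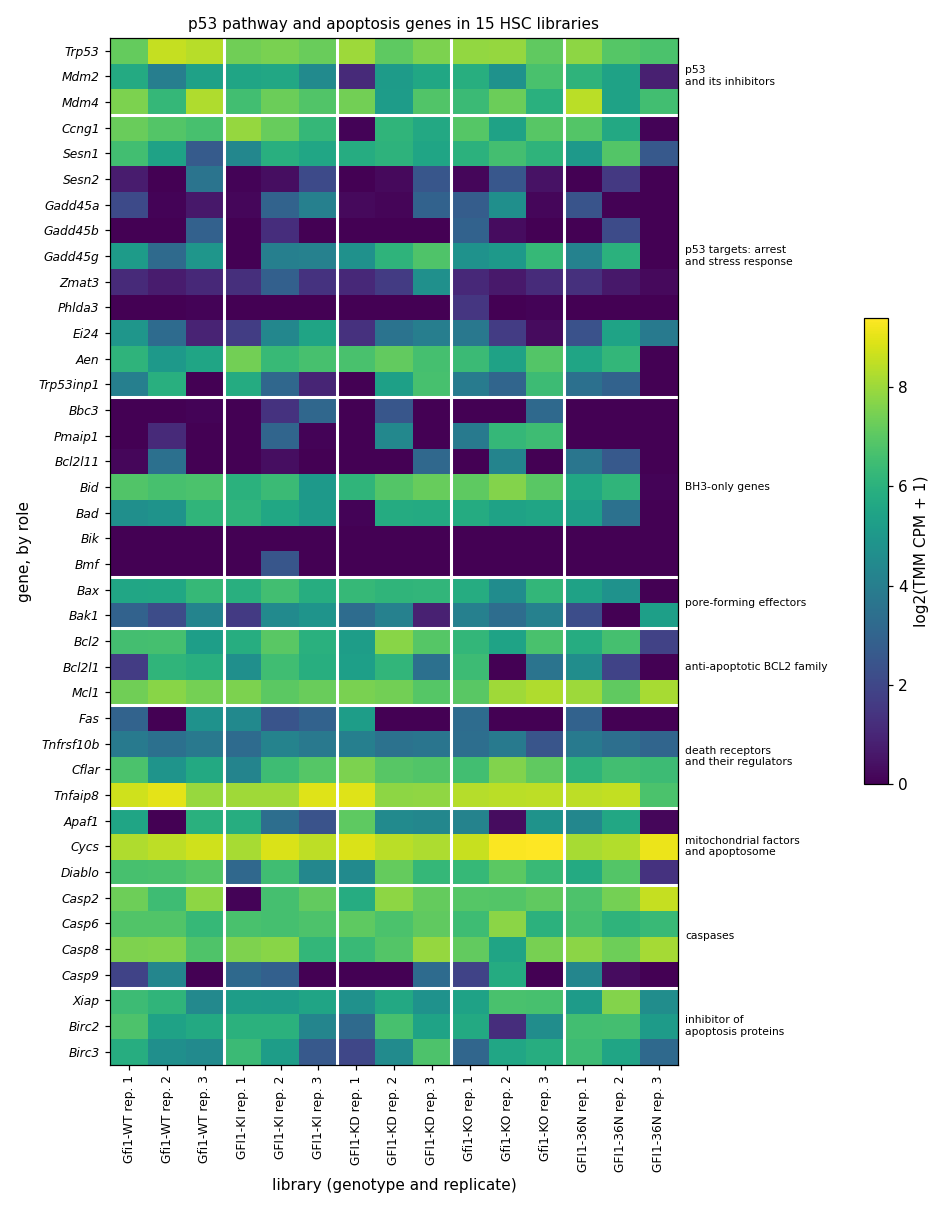
Level of the 40 genes in the 15 libraries as log2(TMM CPM + 1), with genes ordered by role (right margin) and libraries by genotype. White lines separate roles and genotypes. GFI1-36N replicate 3, in the last column, has 23 genes above 0, and Bik is at 0 in every library.

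Trp53 encodes p53 and lies at chr11:69580359-69591873 on the plus strand of GRCm38, the build of all coordinates here. Its level was 142, 374 and 330.3 CPM in Gfi1-WT, 164, 178 and 149.8 in GFI1-KI, 255, 132 and 185 in GFI1-KD, 231, 241 and 137 in Gfi1-KO, and 219, 119 and 105 in GFI1-36N. The GFI1-KI libraries lay within the range of Gfi1-WT, whose replicates 2 and 3 were the highest of all 15. Per unit of transcript length Trp53 ranked 3rd among the members, with a median of 159 TPM computed from transcript lengths, after Cycs (387) and Tnfaip8 (349). The annotation holds a Trp53 pseudogene, and how reads were shared with it is not given in the sources used here. Mdm2, the ubiquitin ligase that both targets p53 and is induced by it, was at 52.1, 15.3 and 40.6 CPM in Gfi1-WT, 44.8, 48.7 and 21.8 in GFI1-KI, 1.17, 34.3 and 47.3 in GFI1-KD, 58.1, 26.5 and 102.2 in Gfi1-KO, and 68.3, 41.1 and 0.750 in GFI1-36N. All genotypes overlapped, and GFI1-KD replicate 1 and GFI1-36N replicate 3, the libraries that stood apart, were near 0. Mdm4, which binds p53 and blocks its activity, ranged from 35.5 to 344 CPM with a median of 113, and the transcript Mdm4-210 held 87.8% of its counts.

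Among the 11 genes grouped as p53 targets of arrest and stress response, Ccng1, Aen, Sesn1 and Gadd45g were the most abundant by median CPM. Of the 11, 5 had a median under 2 CPM. The grouping is that of a gene list, and whether p53 acts on each of them in these cells was not tested. Ccng1 (cyclin G1, a p53 target that acts back on MDM2) was at 150.2, 116 and 100.4 CPM in Gfi1-WT, 237, 146 and 75.8 in GFI1-KI, 0.0615, 70.3 and 49.8 in GFI1-KD, 118, 41.8 and 123 in Gfi1-KO, and 115, 49.8 and 0.0625 in GFI1-36N. It was near 0 in GFI1-KD replicate 1 and GFI1-36N replicate 3, and the GFI1-KD libraries all lay below those of GFI1-KI. Aen, a nuclease that acts in apoptosis, was at 68.6, 32.3 and 45.2 CPM in Gfi1-WT, 167, 78.6 and 99.8 in GFI1-KI, 103, 140.0 and 97.7 in GFI1-KD, 83.3, 41.1 and 116 in Gfi1-KO, and 45.4, 74.1 and 0 in GFI1-36N. It was not detected in GFI1-36N replicate 3, and the GFI1-KI libraries all lay above those of Gfi1-WT and of GFI1-36N. Gadd45g, one of 3 stress sensors of its family, was at 34.6, 8.46 and 29.5 CPM in Gfi1-WT, 0, 15.8 and 16.5 in GFI1-KI, 25.7, 68.7 and 112 in GFI1-KD, 26.4, 32.9 and 76.6 in Gfi1-KO, and 17.1, 62.4 and 0 in GFI1-36N. It was higher in every GFI1-KD library than in any GFI1-KI library, one of which was at 0.

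Sesn1, a sestrin that restrains mTORC1, ranged from 5.13 to 116 CPM with a median of 54.5. Ei24 ranged from 0.223 to 43.8 CPM and Trp53inp1, a regulator of p53-dependent stress responses, from 0 to 99.3 CPM. For Zmat3, an RNA-binding p53 target, the level was 1.20, 0.637 and 1.14 CPM in Gfi1-WT, 1.39, 6.40 and 1.62 in GFI1-KI, 1.11, 2.12 and 25.03 in GFI1-KD, 1.13, 0.551 and 1.23 in Gfi1-KO, and 1.45, 0.508 and 0.188 in GFI1-36N. Only GFI1-KD replicate 3 exceeded 10 CPM. Gadd45a had a median of 0.540 CPM, with its highest levels in Gfi1-KO replicate 2 (24.7 CPM) and GFI1-KI replicate 3 (16.1 CPM). Gadd45b was above 0 in 5 of 15 libraries, at no more than 6.82 CPM, and in none of GFI1-KD. Sesn2 was above 0 in 11 libraries with a median of 0.287 CPM, and Phlda3, a repressor of AKT, in 3 libraries with at most 1.78 CPM.

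Several members, in the target class and outside it, fell to 0 or near it in the same libraries. In GFI1-36N replicate 3 fewer genes of any kind were detected: 26.5% of all genes were above 0, against 32.7% to 42.6% in the other libraries. How many of all genes fell under the rule that follows was not counted. A member with a median of at least 20 CPM over the 15 libraries was at 10 estimated counts or fewer 12 times, of which 7 were in GFI1-36N replicate 3 (Ccng1, Gadd45g, Aen, Bid, Bad, Bax and Bcl2l1), 2 in GFI1-KD replicate 1 (Ccng1, Bad), 2 in GFI1-KI replicate 1 (Gadd45g, Casp2) and 1 in Gfi1-KO replicate 2 (Bcl2l1). The promoters of 4 p53 targets that were near 0 together in GFI1-36N replicate 3 (Mdm2, Ccng1, Bax and Aen) are shown because each holds a match to the p53 half-site consensus, in capitals. The windows run from 250 bases before to 50 bases after the annotated start and come from RefSeq on GRCm38.p6, at chr10:117710709-117711008 (minus strand), chr11:40755237-40755536 (minus strand), chr7:45466849-45467148 (minus strand) and chr7:78895677-78895976 (plus strand) in this order.
Mdm2: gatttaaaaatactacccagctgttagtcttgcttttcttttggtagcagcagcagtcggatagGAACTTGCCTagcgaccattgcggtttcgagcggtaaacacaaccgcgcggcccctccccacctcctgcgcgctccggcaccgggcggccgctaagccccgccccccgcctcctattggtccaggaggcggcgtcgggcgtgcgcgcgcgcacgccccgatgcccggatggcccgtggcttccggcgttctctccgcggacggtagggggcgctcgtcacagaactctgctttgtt
Ccng1: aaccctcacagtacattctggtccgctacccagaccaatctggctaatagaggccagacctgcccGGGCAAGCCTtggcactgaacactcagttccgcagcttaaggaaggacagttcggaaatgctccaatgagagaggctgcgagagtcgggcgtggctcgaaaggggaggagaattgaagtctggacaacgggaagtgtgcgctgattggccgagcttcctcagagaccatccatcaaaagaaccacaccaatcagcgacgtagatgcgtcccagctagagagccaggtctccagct
Bax: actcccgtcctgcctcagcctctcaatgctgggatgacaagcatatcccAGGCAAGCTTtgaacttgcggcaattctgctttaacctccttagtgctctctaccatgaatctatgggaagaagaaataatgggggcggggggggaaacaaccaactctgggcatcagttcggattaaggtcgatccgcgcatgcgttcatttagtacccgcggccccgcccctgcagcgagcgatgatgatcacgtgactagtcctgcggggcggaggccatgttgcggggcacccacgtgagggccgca
Aen: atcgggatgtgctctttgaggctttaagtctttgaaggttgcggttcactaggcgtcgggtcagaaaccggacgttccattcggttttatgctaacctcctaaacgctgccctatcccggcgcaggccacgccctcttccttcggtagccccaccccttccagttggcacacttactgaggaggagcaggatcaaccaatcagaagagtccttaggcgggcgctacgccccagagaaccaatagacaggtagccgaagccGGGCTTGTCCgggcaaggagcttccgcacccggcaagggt

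The half-site began 186, 185 and 201 bases before the start of Mdm2, Ccng1 and Bax and 10 bases after that of Aen. Of the 40 members 34 had RefSeq windows, 48 in all, since some genes have several starts. The p53 half-site consensus (10 bases, 1 strand suffices since it is its own reverse complement) was found in 11 of the 48 windows (22.9%), from 10 genes (Aen, Bax, Birc2, Bmf, Ccng1, Ei24, Gadd45a, Mdm2, Sesn1 and Trp53), and in 8.36% of all 32851 windows. A pair of half-sites with at most 13 bases between them was found in 0 of 48 windows and in 0.0731% of all. The letters AAATCA, which hold the AATC core of the GFI1 motif, were found on either strand in 2 of 48 windows (4.17%; Bcl2l1 and Mdm4) and in 14% of all. A match describes the letters in the window only. Gadd45g, Bid, Bad and Bcl2l1, also at 10 counts or fewer in GFI1-36N replicate 3, had no half-site match. Trp53 (105 CPM), Birc2 (34.7), Ei24 (13.1) and Sesn1 (5.13) held a match and were detected in that library. Gadd45a and Bmf held a match and were at 0 in it. Whether a match bears on these levels was not tested. Tnfaip8, Tnfrsf10b, Bik, Zmat3, Pmaip1 and Trp53inp1 had no window.

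BH3-only genes differed widely in level. Bid, which links caspase 8 to the mitochondria, was at 114, 101 and 106 CPM in Gfi1-WT, 62.2, 83.7 and 32.5 in GFI1-KI, 70.4, 116 and 145 in GFI1-KD, 134, 201 and 126 in Gfi1-KO, and 46.8, 70.4 and 0.0625 in GFI1-36N. The Gfi1-KO libraries all lay above those of Gfi1-WT, and all of these lay above the GFI1-KI libraries. Bad ranged from 0 to 69.9 CPM with a median of 41.9. Pmaip1 (NOXA, a p53 target whose product binds MCL1) was at 0, 1.16 and 0 CPM in Gfi1-WT, 0, 7.31 and 0.0538 in GFI1-KI, 0, 19.8 and 0 in GFI1-KD, 13.6, 75.01 and 87.2 in Gfi1-KO, and 0 in all 3 GFI1-36N libraries. It was above 10 CPM in 4 of 15 libraries, 3 of them Gfi1-KO, and 8 libraries were at 0.

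Bbc3 (PUMA, the p53 target at chr7:16308393-16318205) was at 8.25 CPM in Gfi1-KO replicate 3, 7.86 and 1.58 in GFI1-KI replicates 3 and 2, 4.77 in GFI1-KD replicate 2, 0.0600 in Gfi1-WT replicate 3 and 0 in the other 10 libraries. No genotype had it above 1 CPM in more than 2 of its libraries, and GFI1-36N had it in none. Bcl2l11 (BIM) was above 0 in 7 libraries and highest in Gfi1-KO replicate 2 (17.9 CPM) and GFI1-36N replicate 1 (11.9 CPM). Bmf was above 0 only in GFI1-KI replicate 2 (4.73 CPM), and Bik in none of the 15 libraries. For the 3 untested members a two-sided exact permutation test of each comparison gave no p under 0.7, where 3 against 3 libraries cannot go below 0.1.

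**Figure D2:**
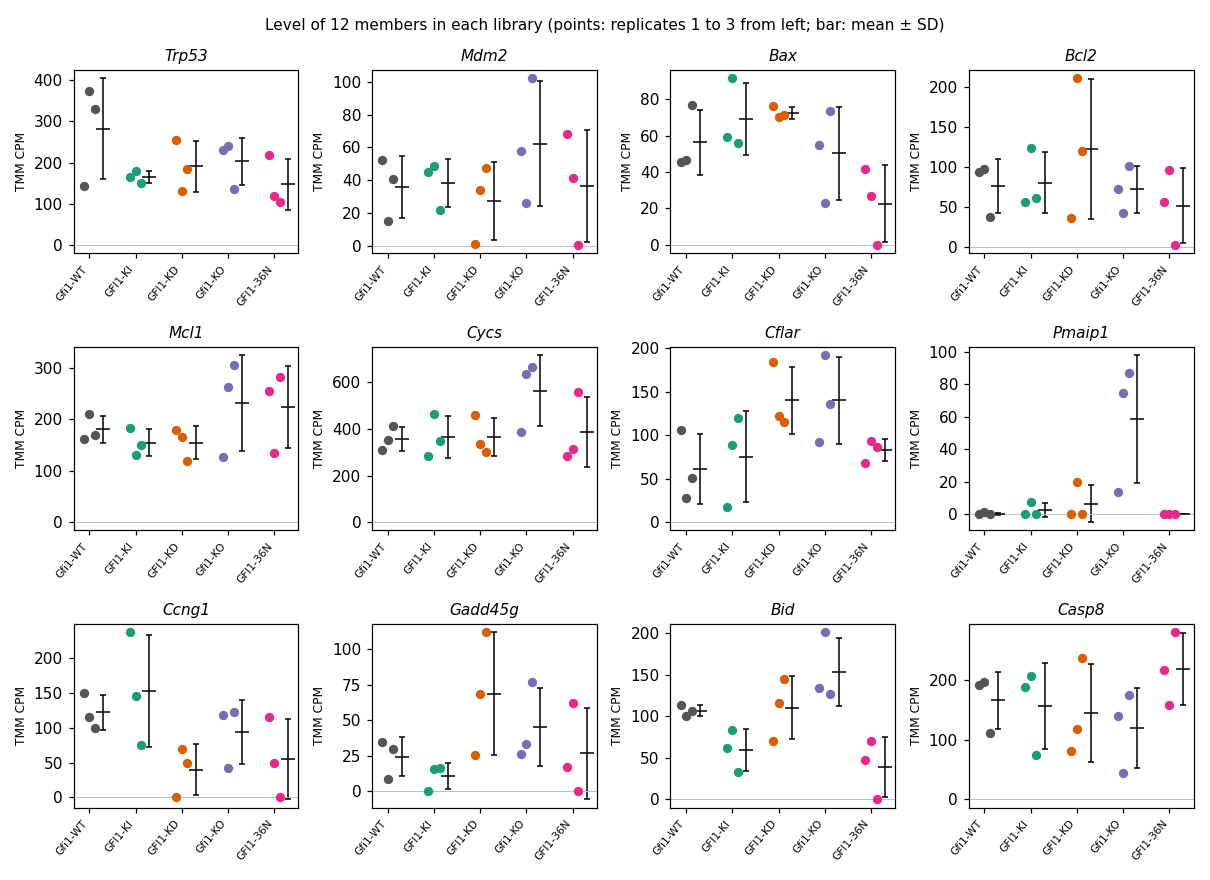
Level in TMM CPM (vertical axis, linear) of 12 members in each library, by genotype. Points are replicates 1 to 3 from left to right and bars the mean ± SD of 3 libraries. Pmaip1 lies above 10 CPM in all 3 Gfi1-KO libraries and in 1 other library, while the genotypes overlap in Trp53 and Mdm2.

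The effector Bax, at chr7:45461697-45466898, was at 45.7, 46.7 and 76.9 CPM in Gfi1-WT, 59.5, 91.8 and 56.2 in GFI1-KI, 76.5, 70.3 and 71.4 in GFI1-KD, 55.2, 22.9 and 73.4 in Gfi1-KO, and 41.6, 26.6 and 0 in GFI1-36N. The GFI1-KD libraries were close to each other, and every GFI1-36N library lay below every GFI1-KI library, with none detected in replicate 3. The second effector, Bak1, had a median of 9.31 CPM and a highest level of 38.3 CPM in GFI1-36N replicate 3. Of its counts 27.9% fell on protein-coding transcripts. Among the anti-apoptotic genes, Bcl2 was at 94.1, 97.04 and 37.01 CPM in Gfi1-WT, 56.05, 124 and 61.6 in GFI1-KI, 36.5, 212 and 121 in GFI1-KD, 72.8, 42.8 and 101.7 in Gfi1-KO, and 55.7, 96.5 and 2.56 in GFI1-36N. GFI1-KD replicate 2 was the highest and GFI1-36N replicate 3 the lowest, and all genotypes overlapped. Mcl1 was at 161, 211 and 169 CPM in Gfi1-WT, 183, 130.5 and 150.4 in GFI1-KI, 179, 166 and 119.6 in GFI1-KD, 127, 263 and 305 in Gfi1-KO, and 254, 134 and 283 in GFI1-36N. Its lowest level in any library was 119.6 CPM, and the transcript Mcl1-201 held 100% of its counts after rounding. Bcl2l1 (BCL-XL) ranged from 0 to 90.6 CPM with a median of 24.4, its counts divided between the transcripts Bcl2l1-201 (49.0%) and Bcl2l1-202 (44.3%).

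Summed per unit of transcript length (on the TPM scale), the 3 anti-apoptotic genes reached 103 to 161 in Gfi1-WT, 115 to 158 in GFI1-KI, 96.7 to 172 in GFI1-KD, 109.8 to 144 in Gfi1-KO and 91.6 to 143 in GFI1-36N. These ranges overlapped throughout. For the effectors, Bax and Bak1 together reached 76.5 to 161 in Gfi1-WT, 118 to 204.5 in GFI1-KI, 142.5 to 146.5 in GFI1-KD, 44.96 to 128 in Gfi1-KO and 26.7 to 82.8 in GFI1-36N. The GFI1-36N libraries lay below those of GFI1-KI in this sum, with replicates 1 and 2 at 82.8 and 53.5 against at least 118. In replicate 3 the sum was Bak1 alone, since Bax was at 0. All transcripts of a gene were summed, and of the Bak1 counts 56.7% fell on Bak1-204, annotated as subject to nonsense-mediated decay. The ratio of the anti-apoptotic to the effector sum was 0.771 to 0.971 in GFI1-KI and 1.71 to 4.29 in GFI1-36N, and 0.664 to 1.17 in GFI1-KD, 1.12 to 2.44 in Gfi1-KO and 0.806 to 2.11 in Gfi1-WT. No test was made on these sums.

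**Figure D3:**
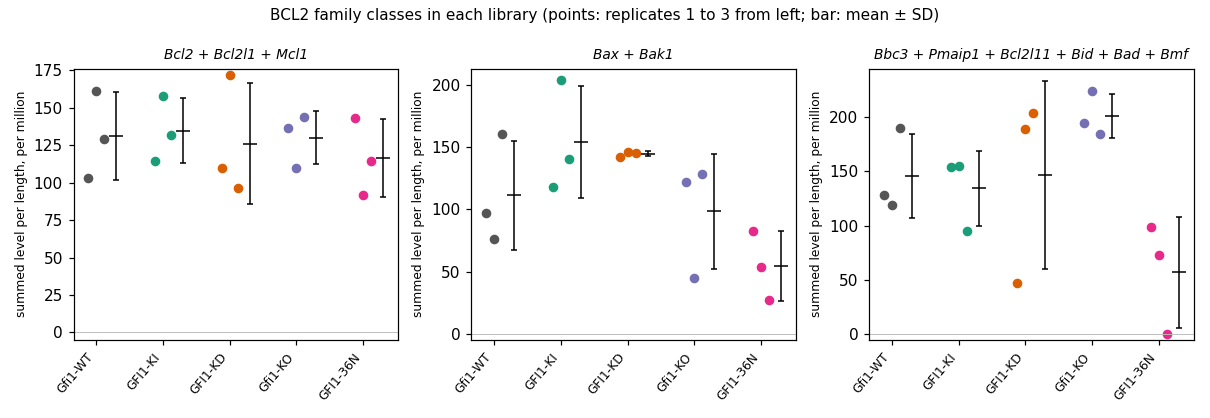
Summed level per unit of transcript length (TPM scale, vertical axis), of anti-apoptotic genes (left), pore-forming effectors (middle) and BH3-only genes (right) in each library; Bik, at 0 throughout, is left out. Points are replicates 1 to 3 from left to right and bars the mean ± SD of 3 libraries; GFI1-36N lies at 26.7 to 82.8 for the effectors, below GFI1-KI at 118 to 204.5.

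Cycs encodes cytochrome c and was the most abundant member per length. It was at 311, 352 and 413 CPM in Gfi1-WT, 285, 464 and 349 in GFI1-KI, 459.9, 337 and 300.5 in GFI1-KD, 389, 636 and 668 in Gfi1-KO, and 285, 312 and 559 in GFI1-36N. Gfi1-KO replicates 2 and 3 were the highest of all, while replicate 1 (389 CPM) lay below Gfi1-WT replicate 3 (413 CPM). The transcript Cycs-202 held 75.7% of its counts and the retained-intron transcript Cycs-201 24.3%, and processed pseudogenes of Cycs, such as Cycs-ps2 and Cycs-ps3 in the annotation, could share reads with it. Cflar, which encodes the caspase 8 inhibitor cFLIP, was at 106, 27.8 and 50.6 CPM in Gfi1-WT, 17.7, 88.6 and 119 in GFI1-KI, 184, 122 and 115 in GFI1-KD, 91.9, 192 and 136 in Gfi1-KO, and 68.2, 93.5 and 86.5 in GFI1-36N. Its lowest levels were in GFI1-KI replicate 1 and Gfi1-WT replicate 2. Apaf1 ranged from 0 to 132 CPM, and Diablo, whose product SMAC frees caspases from their inhibitors, was at 101, 104 and 119.8 CPM in Gfi1-WT, 7.92, 90.7 and 19.2 in GFI1-KI, 21.3, 142 and 74.7 in GFI1-KD, 76.5, 129 and 80.4 in Gfi1-KO, and 51.8, 116 and 1.63 in GFI1-36N. The Diablo levels of all 3 GFI1-KI libraries lay below those of Gfi1-WT.

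Among caspases, the death receptor caspase Casp8 was at 191, 196 and 110.1 CPM in Gfi1-WT, 188, 207 and 73.3 in GFI1-KI, 80.2, 117 and 237 in GFI1-KD, 139, 43.97 and 175 in Gfi1-KO, and 216, 158 and 279 in GFI1-36N. All genotypes overlapped in it, and the transcripts Casp8-202 and Casp8-201 held 55.6% and 41.3% of its counts. Casp6, an executioner caspase, was at 64.8 to 216 CPM and in every GFI1-36N library (96.5, 67.6 and 81.9 CPM) below every GFI1-KI library (104, 97.0 and 108 CPM). Casp2 was at 0.0535 CPM in GFI1-KI replicate 1 and at 55.2 to 381 CPM in the other libraries. Casp9, the caspase of the apoptosome, had a median of 2.73 CPM and was above 0 in 9 libraries. Of the receptors, Fas was above 0 in 8 libraries with a median of 4.39 CPM, and Tnfrsf10b, the murine TRAIL receptor, was above 0 in all 15, at 4.57 to 17.4 CPM. Tnfaip8 was at 105 to 508 CPM. Of the inhibitor of apoptosis proteins, Xiap ranged from 20.6 to 197 CPM, Birc2 from 1.35 to 107 and Birc3 from 2.95 to 108. Of the Xiap counts 39.4% fell on protein-coding transcripts and 58.7% on the transcript Xiap-207.

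The comparison of GFI1-KD with GFI1-KI asks what a lowered dose of human GFI1 changes. No member passed the test: the adjusted p of all 37 was 1 in edgeR's quasi-likelihood test over the 13358 genes, of which 0% passed. At an unadjusted p under 0.05 there were 0 of 37 members, against 2.49% of all genes. Estimates were higher in GFI1-KD for 20 members and lower for 17, and their median on the log2 scale was 0.07 against 0 over all genes. The groups did not overlap for 2 of 37 members (5.41%), Gadd45g higher and Ccng1 lower, against 9.09% of all genes (4.04% higher and 5.05% lower), so that the members' share lay below that of the genome. Without GFI1-KD replicate 1 the groups did not overlap for 3 higher (Gadd45g, Bid and Casp2) and 3 lower members (Ccng1, Fas and Tnfaip8), against 9.65% and 7.73% of all genes. Gadd45g and Ccng1 were bound to remain, since leaving out a library cannot create overlap.

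By log2 fold change, Trp53 differed by 0.22 ± 0.43 (SE; 95% interval −0.70 to 1.14; unadjusted p = 0.621) and Mdm2 by −0.48 ± 1.31 (SE; 95% interval −3.31 to 2.35; unadjusted p = 0.722) between GFI1-KD and GFI1-KI. Gadd45g differed by 2.67 ± 1.98 (SE; 95% interval −1.59 to 6.94; unadjusted p = 0.199) and Ccng1 by −1.93 ± 1.66 (SE; 95% interval −5.52 to 1.65; unadjusted p = 0.265). These intervals span increases as well as decreases, and without GFI1-KD replicate 1 the differences were −0.05 for Trp53, 0.09 for Mdm2, 3.07 for Gadd45g and −1.35 for Ccng1. Leaving out any 1 library of the compared genotypes gave 2.09 to 3.14 for Gadd45g and −2.64 to −1.35 for Ccng1. Bax differed by 0.07 ± 1.30 (SE; 95% interval −2.73 to 2.88; unadjusted p = 0.956) and Bcl2 by 0.61 ± 0.96 (SE; 95% interval −1.47 to 2.69; unadjusted p = 0.538). The difference was 0.00046 ± 0.39 (SE; 95% interval −0.83 to 0.83; unadjusted p = 0.999) for Mcl1 and −0.0015 ± 0.31 (SE; 95% interval −0.68 to 0.68) for Cycs. These 2 were the only members whose 95% interval lay within a 2-fold change in either direction (5.41% of the members, 4.61% of all genes). Cflar, with the lowest p among members estimated higher, differed by 0.90 ± 0.66 (SE; 95% interval −0.53 to 2.33; unadjusted p = 0.198), and Ei24 by −1.24 ± 1.67 (SE; 95% interval −4.85 to 2.36; unadjusted p = 0.47). Bcl2l11, with 1 library above 1 CPM in both groups together, gave an unadjusted p of 0.232, and Gadd45b, at 0 in all GFI1-KD libraries and in 2 of GFI1-KI, one of 0.133 (both with an adjusted p of 1).

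By role, the 10 tested targets of arrest and stress response divided into 5 higher and 5 lower (median log2 fold change 0.19), the 5 tested BH3-only genes into 3 and 2 (0.90), and the 4 caspases into 2 and 2 (0.08). Of 70 other genes of the p53 and apoptosis pathways 65 were tested. There were 30 higher and 35 lower (median −0.15), with 1 at an unadjusted p under 0.05 (1.54%, against 2.49% of all genes). It was Ddb2, a p53 target of nucleotide excision repair, at 0.0615, 0 and 0.0515 CPM in GFI1-KD and 1.12, 18.9 and 69.0 CPM in GFI1-KI (unadjusted p = 0.0171, adjusted p = 1). All 3 GFI1-KD libraries were below all GFI1-KI libraries. The summed level of 8 proliferation markers (8 of 8 above 0) was 1013 to 1608 CPM in GFI1-KD and 1867 to 2339 in GFI1-KI. That of 6 T and NK cell markers (2 to 3 above 0) was 425 to 489 and 227 to 264. It was nearly all Nkg7 (409 to 489 and 227 to 264 CPM), with Cd3e, Cd3g and Klrd1 at 0. The part of these markers in the differences was not tested, and in bulk RNA fewer cells of a type and less RNA per cell cannot be told apart.

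**Figure D4:**
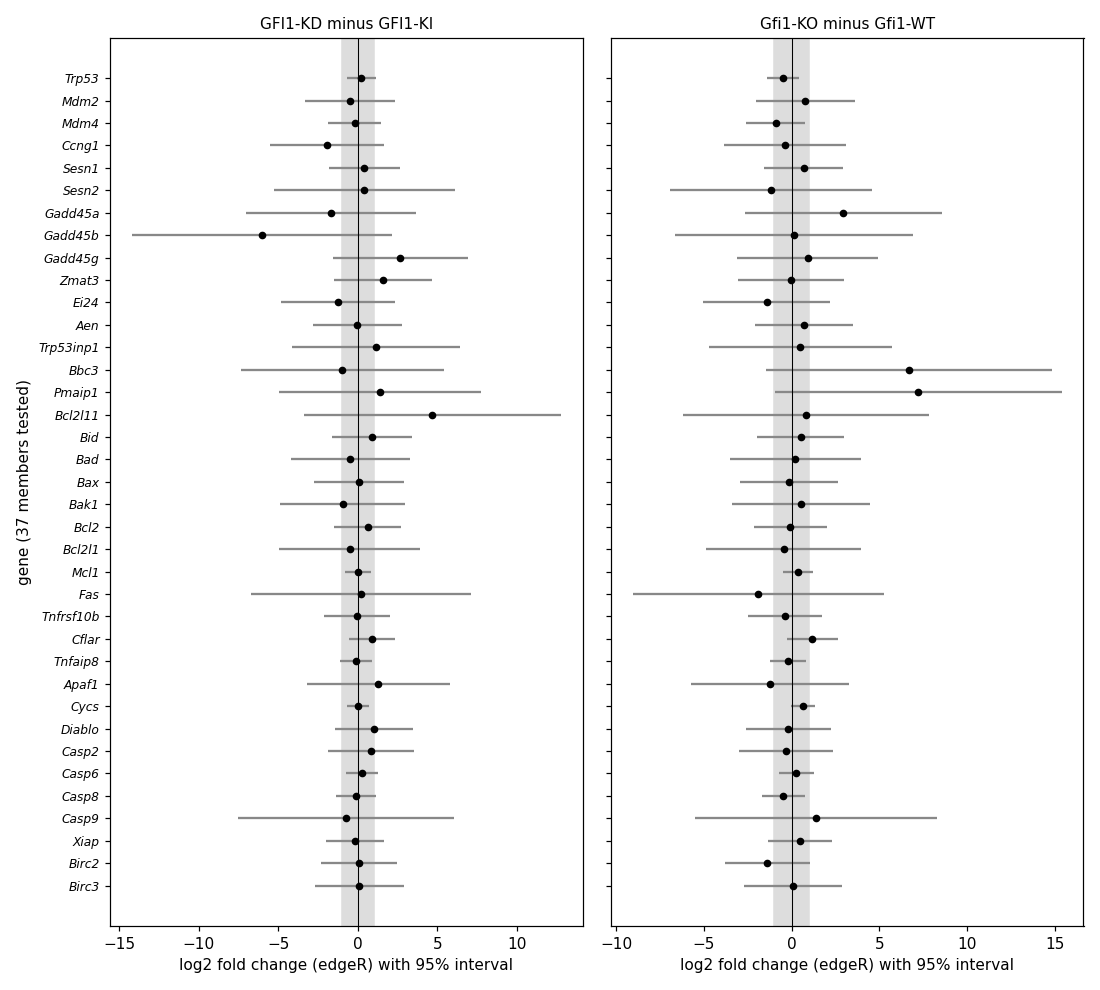
Log2 fold change of the 37 tested members with its 95% interval (horizontal axis, edgeR; lines are the intervals) for GFI1-KD minus GFI1-KI (left) and Gfi1-KO minus Gfi1-WT (right), with genes ordered by role. The grey band marks a 2-fold change in either direction, and in both panels the interval of every member includes 0.

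The comparison of Gfi1-KO with Gfi1-WT asks what the loss of Gfi1 changes. No member passed the test (adjusted p = 1 for all 37 by edgeR, 0% of all genes), and 0 of 37 had an unadjusted p under 0.05, against 3.07% of all genes. There were 20 members higher and 17 lower in the libraries labelled Gfi1-KO, with a median log2 fold change of 0.12 against −0.03 over all genes. The groups did not overlap for 2 of 37 members (5.41%, against 8.95% of all genes), and these were 2 BH3-only genes, Pmaip1 and Bid, both higher. Of all genes 4.04% were higher and 4.9% lower without overlap.

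Pmaip1 had a mean of 58.6 CPM in Gfi1-KO and 0.386 CPM in Gfi1-WT, where 1 library was above 0. The fitted log2 fold change was 7.22 ± 3.73 (SE; 95% interval −0.97 to 15.40; unadjusted p = 0.0783), adjusted p = 1. Without Gfi1-KO replicate 2, which went against the gate, it was 7.02 with an unadjusted p of 0.108 (adjusted p = 1), and without Gfi1-WT replicate 2, when both remaining Gfi1-WT libraries were at 0 and the fitted size is no measure of the change, the unadjusted p was 0.042 (adjusted p = 1). Pmaip1 was at 87.2 CPM in Gfi1-KO replicate 3, where Mpo was at 0 and Cd48 at 13.8 CPM. In that library Mecom was at 0.167 CPM, Fgd5 and Hoxb5 were at 0, and Pf4 was at 2068 CPM. The 10 HSC and sort gate genes, Cd48 among them, summed to 807 CPM there, the lowest of all libraries. Whether the cells of a library bear on its Pmaip1 level was not tested. Bid differed by 0.52 ± 1.15 (SE; 95% interval −1.95 to 3.001; unadjusted p = 0.656) and lay higher in 3 of 3 libraries. All 5 tested BH3-only genes were estimated higher (median 0.83), while without Gfi1-KO replicate 2 the estimate of Bcl2l11 was below 0, and the groups overlapped in Bbc3, Bad and Bcl2l11. The estimates of Bad and Bcl2l11 were 0.20 ± 1.72 (SE; 95% interval −3.52 to 3.93) and 0.83 ± 3.24 (SE; 95% interval −6.16 to 7.83).

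Cycs had the lowest p of the members, with a difference of 0.65 ± 0.32 (SE; 95% interval −0.03 to 1.33; unadjusted p = 0.0582), adjusted p = 1. Without Gfi1-KO replicate 2 it was 0.59 (unadjusted p = 0.129), and without Gfi1-KO replicate 1 it was 0.90 (unadjusted p = 0.0185, adjusted p = 0.783). Cflar differed by 1.19 ± 0.67 (SE; 95% interval −0.25 to 2.63; unadjusted p = 0.0975) and by 0.94 without Gfi1-KO replicate 2 (unadjusted p = 0.233). Without Gfi1-WT replicate 1 the difference of Cflar was 1.85 (unadjusted p = 0.0305, adjusted p = 1). Estimated lower were Birc2, with −1.40 ± 1.12 (SE; 95% interval −3.82 to 1.03; unadjusted p = 0.235), Mdm4, with −0.92 ± 0.78 (SE; 95% interval −2.60 to 0.77; unadjusted p = 0.261), and Trp53, with −0.48 ± 0.43 (SE; 95% interval −1.40 to 0.44; unadjusted p = 0.284). Every one of these intervals includes 0. Leaving out 1 library gave −2.37 to −0.81 for Birc2, −1.36 to −0.34 for Mdm4 and −0.79 to −0.19 for Trp53, and without Gfi1-KO replicate 2, where Birc2 was at 1.35 CPM, the values were −0.81, −1.36 and −0.60. Mdm2 differed by 0.79 ± 1.32 (SE; 95% interval −2.05 to 3.63; unadjusted p = 0.559), Bax by −0.16 ± 1.30 (SE; 95% interval −2.97 to 2.65; unadjusted p = 0.904), Bcl2 by −0.07 ± 0.96 (SE; 95% interval −2.14 to 1.999; unadjusted p = 0.942) and Mcl1 by 0.36 ± 0.39 (SE; 95% interval −0.47 to 1.19; unadjusted p = 0.367). No member had an interval within a 2-fold change in either direction (4.30% of all genes).

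Without Gfi1-KO replicate 2 the groups did not overlap for 4 higher members (Mdm2, Aen, Pmaip1 and Bid) and 2 lower (Tnfrsf10b and Diablo), against 8.44% and 8.11% of all genes. Pmaip1 and Bid were bound to remain, since leaving out a library cannot create overlap. Among the 65 other pathway genes tested 32 were higher and 33 lower (median −0.04), with 2 at an unadjusted p under 0.05 (3.08%, against 3.07% of all genes), both higher. These were Pidd1, a p53 target whose product activates caspase 2, and Rps27l, a ribosomal protein gene induced by p53. Pidd1 was at 21.04, 24.7 and 45.4 CPM in Gfi1-KO and at 0 in all 3 Gfi1-WT libraries (unadjusted p = 0.0161, adjusted p = 1). It was at or under 5.29 CPM in the other 9 libraries. Rps27l was at 237, 399.5 and 509.8 CPM in Gfi1-KO and at 161, 175 and 318 CPM in Gfi1-WT, with overlap (unadjusted p = 0.0471, adjusted p = 1). Casp2 itself, the caspase downstream of PIDD1, was at 119, 116 and 136 CPM in Gfi1-KO and at 158, 88.8 and 218 CPM in Gfi1-WT.

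Markers of other cells varied between the Gfi1-KO libraries. Summed levels were 56.0 to 3375 CPM in Gfi1-KO and 144 to 219.7 in Gfi1-WT for the granulocyte genes (1 to 5 of 9 above 0), 308 to 938 and 138 to 329 for the T and NK cell genes (1 to 3 of 6, nearly all Nkg7), 37.8 to 2642 and 345 to 956 for 6 megakaryocyte genes (3 to 5 of 6), 53.6 to 369 and 7.01 to 57.8 for 6 monocyte genes (2 to 6 of 6), 34.7 to 392 and 22.4 to 88.2 for 8 erythroid genes (1 to 7 of 8), and 1664 to 2439.6 and 1536 to 1642 for the proliferation markers (8 of 8). The proliferation sum lay higher in every Gfi1-KO library, though narrowly in replicate 2 (1664 CPM, against 1642 in Gfi1-WT replicate 1), and the other sums overlapped. Without Gfi1-KO replicate 2 the granulocyte sum was 56.0 and 173 CPM, the monocyte sum 53.6 and 89.0, the erythroid sum 34.7 and 156.8, the T and NK cell sum 308 and 709 and the megakaryocyte sum 854 and 2642. The proliferation sum was then 2093 and 2439.6 CPM. The part of these markers in the levels of Pmaip1, Cycs and Cflar was not tested.

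The comparison of GFI1-36N with GFI1-KI sets a variant against the common form of human GFI1 in the same locus and shares the GFI1-KI libraries with the GFI1-KD comparison. By edgeR 0 of 37 members passed the adjusted threshold (0% of all genes), and 1 had an unadjusted p under 0.05 (2.7%, against 4.6% of all genes). There were 15 members higher and 22 lower (median −0.15, against −0.08 over all genes). The groups did not overlap for 4 of 37 members (10.8%, against 9.57% of all genes, 6.27% lower and 3.3% higher), all lower in GFI1-36N: Aen, Bax, Bcl2l1 and Casp6. Leaving out a library cannot create overlap, so that these 4 were bound to remain without GFI1-36N replicate 3. Gadd45g, Bcl2l11 and Birc2 were then higher without overlap (9.43% of all genes lower and 10.1% higher).

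The member under the unadjusted threshold was Bbc3, at 0 in all 3 GFI1-36N libraries and at 0, 1.58 and 7.86 CPM in GFI1-KI (unadjusted p = 0.0476, adjusted p = 0.981). Pmaip1 was likewise at 0 in all 3 GFI1-36N libraries and at 0, 7.31 and 0.0538 CPM in GFI1-KI (unadjusted p = 0.0539, adjusted p = 0.981). In DESeq2 these 2 had adjusted p-values of 1.15e-04 and 1.32e-07 and were the only members it called in any of the 5 contrasts, 2 of 37 in this one (5.41%), against 2.72% of all genes. DESeq2 called 1.35% of all genes for GFI1-KD, 1.45% for Gfi1-KO, 1.09% for GFI1-KI against Gfi1-WT and 1.49% for the difference of the GFI1-KD and Gfi1-KO effects. One GFI1-KI library of each gene was at 0 as well, so that the groups share that level. Without GFI1-KI replicate 2 the unadjusted p of Pmaip1 by edgeR was 0.404 (adjusted p = 1). Bax differed by −1.60 ± 1.33 (SE; 95% interval −4.48 to 1.27; unadjusted p = 0.25), Aen by −1.53 ± 1.32 (SE; 95% interval −4.38 to 1.32; unadjusted p = 0.267) and Casp6 by −0.33 ± 0.47 (SE; 95% interval −1.33 to 0.67; unadjusted p = 0.492). Their intervals include 0, and without GFI1-36N replicate 3 the differences were −1.02 for Bax, −0.95 for Aen and −0.33 for Casp6 (unadjusted p = 0.127, 0.125 and 0.519, adjusted p = 1 by edgeR). Bcl2l1 differed by −2.73 ± 2.17 (SE; 95% interval −7.42 to 1.96; unadjusted p = 0.231), with 23.3, 2.75 and 0 CPM in GFI1-36N and 24.4, 90.6 and 57.8 CPM in GFI1-KI. Zmat3 differed by −2.12 ± 1.45 (SE; 95% interval −5.25 to 1.02; unadjusted p = 0.168), Mcl1 by 0.53 ± 0.39 (SE; 95% interval −0.30 to 1.37; unadjusted p = 0.19) and Xiap, a direct caspase inhibitor, by 1.13 ± 0.85 (SE; 95% interval −0.70 to 2.97; unadjusted p = 0.204).

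Xiap was at 34.4, 197 and 23.1 CPM in GFI1-36N and 36.8, 35.1 and 43.9 CPM in GFI1-KI, so that its estimate rested on GFI1-36N replicate 2, and without it the log2 fold change was −0.43. For Bcl2l11, at 11.9, 5.14 and 0 CPM in GFI1-36N and 0, 0.287 and 0 CPM in GFI1-KI, the unadjusted p was 0.167. By role, 7 of 10 tested targets were lower (median −1.19), 4 of 5 BH3-only genes were lower (−1.66) and 3 of 3 inhibitor of apoptosis genes higher (0.62). Without GFI1-36N replicate 3, in which 23 members were above 0, 6 of 10 targets were lower (median −0.61), 4 of 5 BH3-only genes lower (−1.07) and 3 of 3 inhibitor of apoptosis genes higher (0.96), and Bcl2l1 differed by −2.14. Of the 65 other pathway genes 27 were higher and 38 lower (median −0.17), with 1 at an unadjusted p under 0.05 (1.54%), Endog, a mitochondrial nuclease, at 0.807, 4.58 and 0 CPM against 0.0535, 0 and 0 (unadjusted p = 0.0493, adjusted p = 0.981). The proliferation sum was 1119 to 1774 CPM in GFI1-36N (7 to 8 of 8 above 0) against 1867 to 2339 in GFI1-KI, that of 10 HSC and sort gate genes 1254 to 1416 (9 to 10 of 10) against 1486 to 1653 (10 of 10), both lower without overlap, and that of 8 stress and dissociation genes 1244 to 2373 (5 to 7 of 8) against 726 to 1846 (5 to 8 of 8). Their part was not tested.

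The 2 control genotypes, GFI1-KI and Gfi1-WT, differ in the species of the GFI1 gene and share libraries with the comparisons above. By edgeR 0 of 37 members passed the adjusted threshold (0% of all genes) and 0 an unadjusted p under 0.05, against 2.09% of all genes. In GFI1-KI 18 members were higher and 19 lower (median −0.07, against 0 over all genes). The groups did not overlap for 4 of 37 members (10.8%, against 8.65% of all genes, 4.46% higher and 4.18% lower): Zmat3 and Aen were higher in every GFI1-KI library, and Bid and Diablo lower. Trp53 differed by −0.78 ± 0.43 (SE; 95% interval −1.71 to 0.14; unadjusted p = 0.0904), the lowest p of the members, with overlap between 142 CPM in Gfi1-WT replicate 1 and 149.8 to 178 CPM in GFI1-KI. Zmat3 differed by 1.66 ± 1.43 (SE; 95% interval −1.43 to 4.75; unadjusted p = 0.268) and Diablo by −1.46 ± 1.15 (SE; 95% interval −3.95 to 1.03; unadjusted p = 0.228). Bid differed by −0.85 ± 1.15 (SE; 95% interval −3.34 to 1.64; unadjusted p = 0.476).

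Gadd45a was at 0.107, 6.93 and 16.1 CPM in GFI1-KI and at 3.36, 0.0579 and 0.540 in Gfi1-WT, a log2 difference of 2.54 ± 2.56 (SE; 95% interval −2.98 to 8.06; unadjusted p = 0.338). Bbc3 had an unadjusted p of 0.0922 and Bcl2l11, at 0, 0.287 and 0 CPM in GFI1-KI and 0.114, 9.91 and 0 in Gfi1-WT, one of 0.21 (adjusted p = 1 for both). Each had at most 2 libraries above 1 CPM in the 2 groups together. The other pathway genes gave 34 higher and 31 lower (median 0.04). Of the 65 tested, 1.54% had an unadjusted p under 0.05, namely Endog, lower in GFI1-KI (edgeR unadjusted p = 0.0401, adjusted p = 1), whose libraries also entered the comparison with GFI1-36N. The proliferation sum of 1867 to 2339 CPM in GFI1-KI lay above the 1536 to 1642 in Gfi1-WT, and its part was not tested.

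**Figure D5:**
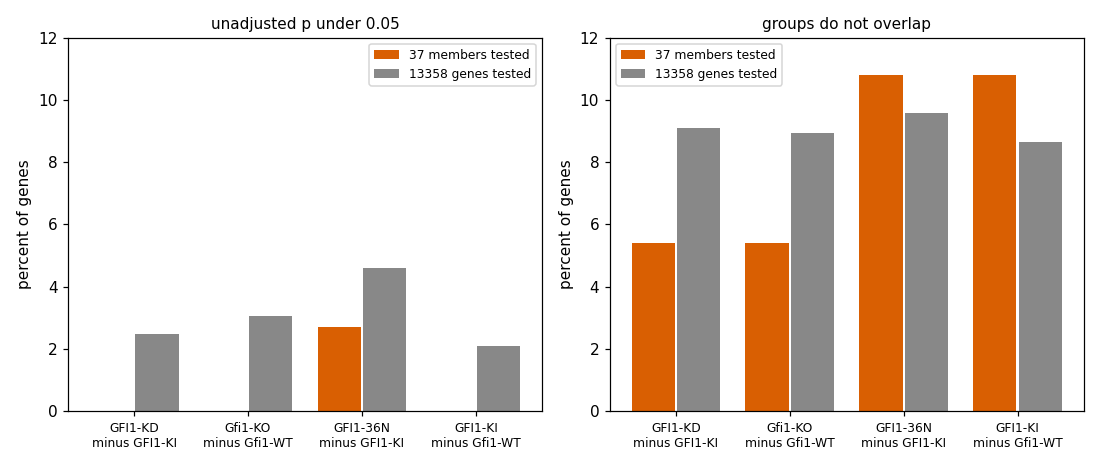
Percent of genes (vertical axis, from 0) with an unadjusted p under 0.05 (left) and with no overlap between the groups' 3 libraries (right), in each of 4 comparisons, for the 37 tested members (orange) and all 13358 genes tested (grey). The members reach 0% to 2.7% on the left against 2.09% to 4.6% of all genes, and 5.41% to 10.8% on the right against 8.65% to 9.57%.

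Whether the effect of GFI1-KD differed from that of Gfi1-KO, each against its own control, was tested as a contrast in the same fit. By edgeR 0 of 37 members passed the adjusted threshold (0% of all genes) and 0 an unadjusted p under 0.05, against 3% of all genes, with 19 positive and 18 negative differences (median 0.07, against 0.03). Cycs differed by −0.66 ± 0.44 (SE; 95% interval −1.62 to 0.30; unadjusted p = 0.164), Trp53 by 0.69 ± 0.60 (SE; 95% interval −0.61 to 1.99; unadjusted p = 0.272), Birc2 by 1.46 ± 1.56 (SE; 95% interval −1.92 to 4.84; unadjusted p = 0.367) and Apaf1 by 2.51 ± 2.96 (SE; 95% interval −3.86 to 8.89; unadjusted p = 0.41). For Bbc3 the unadjusted p was 0.12 and for Gadd45b 0.187. The difference for Mcl1 was −0.36 ± 0.54 (SE; 95% interval −1.54 to 0.82) and for Pmaip1 −5.80 ± 4.31 (SE; 95% interval −15.27 to 3.68). A differing response of p53 or apoptosis genes to the lowered dose and to the loss of GFI1 was not detectable in these libraries. Among the 65 other pathway genes 32 differences were positive and 33 negative, and 3 had an unadjusted p under 0.05 (4.62%): Pidd1 (0.0252), Tradd, an adaptor of death receptors (0.0435), and Ddb2 (0.0463), all negative and none past the adjusted threshold. The standard error was above 1 for 30 of 37 members in this contrast and for 26 of 37 in each of the other 4, so that a 2-fold change in most members lay within 1 standard error.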

How the data were processed

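RNA from sorted HSCs was sequenced as single-end poly(A) libraries. According to the methods, the authors quantified reads with Salmon 1.9.0 on murine cDNA (Ensembl release 102, GRCm38) at k-mer size 31 and with bias corrections, and mapped transcripts to symbols with annotables 0.1.91. What the authors deposited are estimated counts from length-scaled TPM, neither whole nor normalised between libraries. They were rounded for the tests. Rows without a symbol held 0.00679% to 0.0719% of counts and were left out. The authors' sleuth 0.30.0 results were not used.

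Tests were run in edgeR 4.0.16 under R 4.3.3. Genes were kept by filterByExpr (count of at least 10, total of at least 15), libraries were scaled by TMM, and the quasi-likelihood F test was fitted to all 15 libraries together (10 residual degrees of freedom), with Benjamini-Hochberg adjustment over 13358 genes and a threshold of 0.05. Standard errors and 95% intervals come from the F statistic. CPM spreads used a prior count of 2. Levels per length used GENCODE M21 transcript lengths (98.94% of 117135 transcripts, 99.57% of counts). Ei24, with few of its counts matched, was ranked with the other members, but no level per length is given for it here. Scripts were tested on simulated data.

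The members and gene lists were chosen with earlier results of these data known. Values in every library are given for Trp53, Mdm2, Bax, Bcl2, Mcl1 and, per comparison, for members with an unadjusted p under 0.05 or among the 3 lowest per direction; others named so were chosen after their values were seen. Other pathway genes are named at an unadjusted p under 0.05. Alternatives were another control genotype, the compared genotypes alone, a replicate block, leaving out each replicate or the libraries that stood apart, no filter, the filter of sleuth, upper-quartile and median-ratio normalisation, limma-trend (limma 3.58.1) and DESeq2 1.42.0.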

Additional observations from a re-analysis of the deposited data

How the results depend on the processing

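The libraries held 16221642 to 20641056 estimated counts each, and neither depth nor the number of libraries was varied. Of 935 values under alternatives 869 kept their direction and their side of the threshold, or moved by less than the spread. No alternative by edgeR or limma gave a member an adjusted p under 0.05, and the medians of the members moved by less than the spread. This spread was 0.759, the SD between libraries of a genotype of the members' median log2 CPM. It is wide enough that a median could turn sign within it. For GFI1-36N, leaving out 1 library gave medians of −0.589 to 0.041. The cause of the changes below was not tested.

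Members with an unadjusted p under 0.05 are given with the share of all genes. The compared genotypes alone gave 2 of 34 (2.08% of all genes) for Gfi1-KO against Gfi1-WT, 0 of 32 (2.21%) for GFI1-36N and 1 of 33 (2%) for GFI1-KI against Gfi1-WT, 1 of all genes past the adjusted threshold for GFI1-36N, and −0.0157 for Mcl1 in GFI1-KD. For GFI1-36N there were 2 members without a filter (4.18%) and 0 with the filter of sleuth (3.71%). Without the libraries that stood apart the number was 1 for GFI1-KD (2.18%), 1 for Gfi1-KO (4.47%), 0 for GFI1-36N (3.27%), 1 for GFI1-KI (3.25%) and 1 for the difference (4.15%), and the GFI1-KD change was −0.0599 for Trp53, 0.0755 for Mdm2 and −0.125 for Mcl1. Limma-trend gave 1 for GFI1-KD (3.44%), 1 for Gfi1-KO (3.62%), 3 for GFI1-36N (6.19%) and 1 for the difference (2.82%), and −0.00657 for Mcl1 in GFI1-KD. DESeq2 called 181, 194, 364, 146 and 199 of all genes for GFI1-KD, Gfi1-KO, GFI1-36N, GFI1-KI and the difference. Of the members it gave 1 an unadjusted p under 0.05 in Gfi1-KO (6.15%), and 2 in GFI1-36N (9.09%), both past the adjusted threshold (2.72%).

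Replicate numbers did not pair the libraries, since 1 of 30 same-numbered pairs correlated above 0.1 (range −0.106 to 0.102). With replicate number as a block, 1 member had an unadjusted p under 0.05 in Gfi1-KO (2.09% of all genes), 2 in GFI1-36N (3.47%) and 1 in the difference (2.16%), and Bcl2 in Gfi1-KO was at 0.179.

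Leaving out each replicate, the number of all genes past the adjusted threshold was 0 to 1 for Gfi1-KO and for the difference, the 1 in each without Gfi1-KO replicate 1. Members with an unadjusted p under 0.05 numbered 0 to 1 for Gfi1-KO (1 without Gfi1-KO replicate 1 and without Gfi1-WT replicate 1 or 2), 0 to 2 for GFI1-36N (0 without GFI1-KI replicate 2 or 3 or GFI1-36N replicate 2 or 3), 0 to 1 for GFI1-KI (1 without GFI1-KI replicate 2 or Gfi1-WT replicate 1) and 0 to 2 for the difference (2 without GFI1-KD replicate 2). Of 39 log2 changes of named members, 11 turned sign when 1 library was left out, 21 kept it and moved by over 1.5 times, and 7 did neither. Those that turned sign ran from −0.518 to 0.219 for Bax and −0.381 to 0.229 for Bcl2 in Gfi1-KO. In GFI1-KD they ran from −0.0513 to 0.427 for Trp53, −1.12 to 0.0859 for Mdm2, −0.0523 to 0.331 for Bax, −0.0351 to 1.06 for Bcl2, −0.119 to 0.155 for Mcl1 and −3.87 to 8.58 for Bcl2l11. They ran from −0.433 to 1.58 for Xiap in GFI1-36N, −8.91 to 0.698 for Bcl2l11 in GFI1-KI against Gfi1-WT, and −15.5 to 0.954 for Bbc3 in the difference. Gadd45b gave no value for GFI1-KD without GFI1-KI replicate 2, since both groups were then at 0.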
